A study of Mus musculus with 12 samples.

Results

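Transcripts of 10 genes that mark or serve the T-cell lineage were followed in mouse leukemia cells of pre-B type (pre-B-ALL), to ask whether cells that lose Phf6 take on T-cell transcripts. The genes are Lck, Zap70, Lat, Grap2, Cd28, Cd5, Cd3e, Cd4, Gata3 and Bcl11b. They were taken by symbol from a table of 23224 genes. No measured threshold enters the rule, but the list was drawn up with earlier results of these data known. All 10 were found in the table. Of these, 7 passed the filter on low counts and were tested. Cd3e, Cd4 and Bcl11b did not pass it, and their counts are given without a test.

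The leukemia cells came from C57BL/6J mice, lacked p19 (the ARF product of Cdkn2a) and were transformed by the BCR-ABL1 fusion kinase, and these features were shared by every group. Libraries were labelled as Phf6 null with guide sg1 (KO_sg1), as Phf6 null with guide sg4 (KO_sg4), as carrying a short hairpin RNA against Phf6 (KD), or as Phf6 wild type (WT), with 3 libraries in each of the 4 groups. PHF6 is a nuclear protein that binds chromatin, and the series asks about its part in B-cell identity. The labels do not say whether a guide line is a single clone, nor whether replicate libraries represent separate cultures, so each p-value reflects library-to-library spread that could be purely technical.

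In T cells the antigen receptor signals through the CD3 chains. The Src-family kinase LCK, held by the coreceptors CD4 and CD8, phosphorylates these chains and activates the kinase ZAP70. ZAP70 phosphorylates the membrane scaffold LAT, and the adaptor GRAP2 (GADS) couples LAT to the adaptor SLP-76, encoded by Lcp2. CD28 is the costimulatory receptor and CD5 a surface receptor that dampens the signal. GATA3 and BCL11B are transcription factors of T-lineage commitment. Several of these genes are not exclusive to T cells: CD5 is also a marker of B-1a cells, and in mice ZAP70 and LAT are also found in B-cell precursors, where the relatives SYK, BLK and BLNK serve the pre-B-cell receptor.

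Estimated counts summed to 20382328 to 36032369 in a library, and 12335 genes were tested. Phf6 itself stood at 3.40 ± 0.288 CPM in KO_sg1, 36.6 ± 7.37 CPM in KO_sg4, 8.79 ± 0.429 CPM in KD and 34.5 ± 0.751 CPM in WT (SD, n = 3 each), where CPM is the count normalised to library size after TMM scaling. The mRNA of the targeted gene was thus lower in KO_sg1 and KD, while in KO_sg4 it did not differ from WT beyond the test (edgeR adjusted p = 0.527) and gives no check of that label. Transcripts of Ddx3y, Kdm5d and Uty, which are Y-linked, summed to 0.0310 to 0.147 CPM over the 6 KO libraries, against 100 to 105 CPM in KD and 76.5 to 88.3 CPM in WT. Every comparison of KO with WT or KD below includes that difference in Y-linked transcripts, and it cannot be told apart from the Phf6 label. The labels give the same strain and transformation for all 4 groups and do not say whether they come from a common parental line. B-lineage markers were high throughout: 7 markers (Pax5, Ebf1, Cd79a, Cd79b, Vpreb1, Igll1 and Blnk) summed to 5150 to 5730 CPM in KO_sg1, 4090 to 5410 CPM in KO_sg4, 12800 to 13300 CPM in KD and 5420 to 5820 CPM in WT. Most of each sum came from Cd79a, Cd79b, Vpreb1 and Igll1, which were higher in KD than in WT. The other 3 were not: Blnk was lower in KD (82.5 against 141 CPM, edgeR adjusted p = 2.81e-09), and Pax5 (0.0925) and Ebf1 (0.995) did not pass.

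Cd3e, Cd4 and Bcl11b stayed at or near 0 in every group, and the tested signalling genes did not share one direction. Lck and Grap2 rose in both KO lines, Grap2 by 47.3-fold in their mean. Cd28 fell in both KO lines and rose in KD. Cd5 and Lat rose in KO_sg1 and in KD but did not pass the test in KO_sg4. In bulk RNA a change in the number of cells that carry a transcript and a change in transcript per cell cannot be told apart.

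Counted over the 7 tested members, KO_sg1 had 5 higher and 1 lower than WT, where 38.8% of all tested genes were called by edgeR (16.9% higher and 21.9% lower). KO_sg4 had 2 higher and 3 lower, where 40% of genes were called (18% higher and 22% lower). The 5 calls became 3 without WT replicate 1, KO_sg4 replicate 1 or KO_sg4 replicate 3. In KD 4 were higher and 2 lower, where 77.6% of genes were called (37.2% higher and 40.4% lower), so that a call in KD says little by itself. In the mean of both guides 4 were higher and 1 lower, where 41.5% of genes were called (17.7% higher and 23.8% lower). Libraries did not overlap with WT for 7 members in KO_sg1, 3 in KO_sg4, 6 in KD and 3 in both guides together, beside 56.4%, 46.3%, 84.5% and 30.4% of all tested genes. These counts describe 7 genes chosen with results known and are not a test of the group.

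Cd3e, a chain of the CD3 complex that every T-cell receptor needs, gave 2 estimated counts over the 12 libraries, 1 each in KD replicates 2 and 3. Cd4, the coreceptor of helper T cells, gave 1 count, in KO_sg4 replicate 1. Bcl11b gave 9.68 estimated counts in all, with 4.04 in KO_sg1, 0 in KO_sg4, 4.63 in KD and 1.01 in WT. All 3 were thus at the limit of detection in every group. With a floor of 3 counts, a 0 is compatible with up to 0.0884 CPM in the deepest library and 0.167 CPM in the shallowest, counting error only.

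Gata3 was low as well, at 0.485, 0.472 and 0.446 CPM in KO_sg1, 0.0929, 0.196 and 0.0340 CPM in KO_sg4, 0.312, 0.340 and 0.285 CPM in KD, and 0.412, 0.134 and 0.313 CPM in WT. The KO_sg4 libraries were the lowest as a group, but they overlapped with WT replicate 2. Gata3 was called lower in KO_sg4 than in WT (log2 fold change -1.5 ± 0.54, edgeR adjusted p = 0.0408), on 7.43 estimated counts over the 3 KO_sg4 libraries against 24.2 over the 3 WT libraries. That call was lost under 13 of 18 alternatives, with adjusted p from 0.0127 to 0.188, among them without WT replicate 1 (0.188) and without KO_sg4 replicate 3 (0.155). Against WT, Gata3 did not pass in KO_sg1 (0.72 ± 0.40, adjusted p = 0.17) or in KD (0.13 ± 0.42, adjusted p = 0.789). Transcripts of other genes overlap Gata3 on both strands in the GENCODE annotation of GRCm38, and the strand setting of the counting is not given in the sources used here, so the low counts of Gata3 are uncertain.

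The level of T-cell markers was low in all groups, with some above 0 in KD only or highest there. The list of 10 holds Cd3d, Cd3e, Cd3g, Cd247, Cd4, Cd8a, Cd8b1, Bcl11b, Tcf7 and Thy1, and its summed level was 10.5 to 12.7 CPM in KO_sg1, 6.09 to 7.90 CPM in KO_sg4, 9.46 to 11.4 CPM in KD and 10.4 to 11.1 CPM in WT. Most of that came from Tcf7, a factor of both T and innate lymphoid cells, at 9.56 CPM in KO_sg1, 3.49 CPM in KO_sg4, 5.72 CPM in KD and 7.78 CPM in WT. In all 3 libraries of the group, 4 of the 10 markers had no count in KO_sg1, 5 in KO_sg4, 2 in KD and 4 in WT. Cd3g, a CD3 chain, had 9, 5 and 6 counts in the KD libraries and 0 in the other 9 libraries. Thy1, a surface glycoprotein of T cells, had 0 counts in all 6 KO libraries and 31, 19 and 31 counts in KD, against 6, 8 and 6 counts in WT. Thy1 rose in KD (log2 fold change 1.9 ± 0.31, edgeR adjusted p = 0.000245) and fell in the KO mean (adjusted p = 0.000151). NK and innate lymphoid markers summed to 0.725 to 1.27 CPM in KO_sg1, 3.72 to 4.40 CPM in KO_sg4, 0.665 to 1.17 CPM in KD and 0.100 to 0.313 CPM in WT, with Klrb1c the highest of them in every group and Nkg7, Ncr1, Gzma and Gzmb without a count in all 12 libraries. Myeloid markers summed to 5.08 to 7.31 CPM in KO_sg1, 7.71 to 8.53 CPM in KO_sg4, 58.3 to 59.5 CPM in KD and 15.1 to 16 CPM in WT. Erythroid markers summed to 0.236 to 4.35 CPM in KO_sg1, 0.272 to 2.3 CPM in KO_sg4, 0.222 to 3.32 CPM in KD and 0.391 to 2.99 CPM in WT. Their spread came mainly from Hbb-b1, whose estimated count in a library was 0, 37.16, 72.71 or 74.31, so these sums are uncertain. Stromal and epithelial markers summed to 25.7 to 28.1 CPM in KO_sg1, 25.6 to 30.5 CPM in KO_sg4, 88.8 to 89.5 CPM in KD and 32.2 to 33.3 CPM in WT, nearly all from Pecam1, which leukocytes also express, and Epcam had no count in any library. The shifts of B-lineage, myeloid and Pecam1 levels in KD, and of the myeloid and NK markers in KO, accompany the changes of T-cell signalling genes described next, and their part in those changes was not tested.

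**Figure D1:**
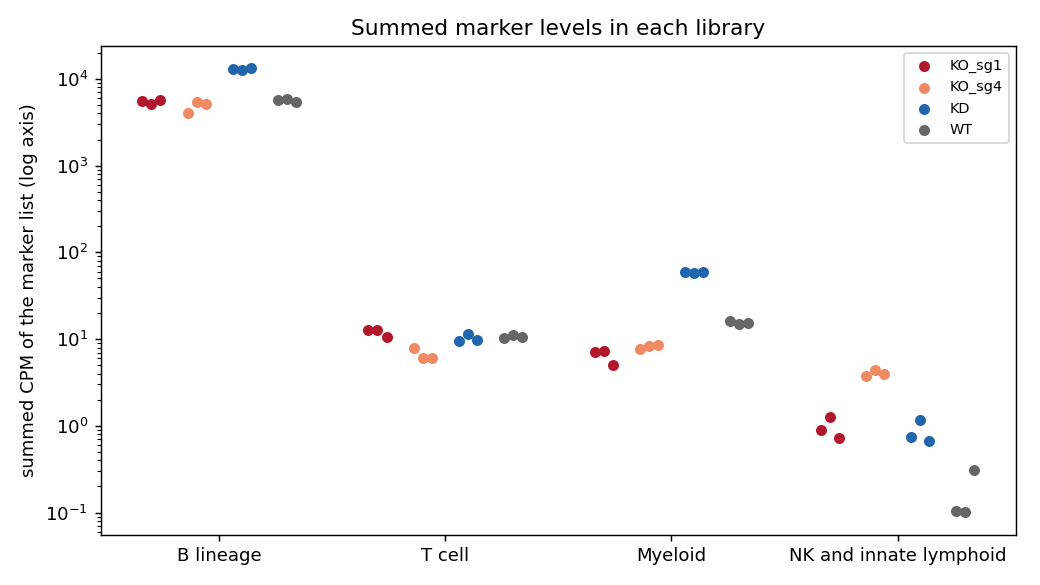
Summed level of 4 fixed marker lists in each library, in TMM-scaled CPM on a log axis; each point is 1 library, with KO_sg1, KO_sg4, KD and WT from left to right. The T-cell markers sum to 6.09 to 12.7 CPM in every group, against 4090 to 13300 CPM for the B-lineage markers.

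Among the receptors, Cd28, the costimulatory receptor of T cells, moved in opposite directions in KO and KD. It had 2.75, 2.77 and 2.34 CPM in KO_sg1 and 1.11, 0.147 and 0.714 CPM in KO_sg4. KD libraries had 36.1, 40.3 and 39.2 CPM, against 11.5, 12.1 and 14.1 CPM in WT. No libraries of different groups overlapped, and the order was KD, WT, KO_sg1, KO_sg4. KO_sg4 replicate 2, with 3.32 estimated counts, lay at the floor of its library. Cd28 fell by 2.24 ± 0.20 on the log2 scale in KO_sg1 (edgeR adjusted p = 8.81e-07) and by 4.11 ± 0.25 in KO_sg4 (9.64e-09). In KD it rose by 1.62 ± 0.17, which is 3.07-fold (5.61e-07). The line means of KO and KD differed by -4.80 ± 0.17 (adjusted p = 3.79e-12). Its estimated counts were fractional in most libraries, as happens where RSEM divides reads between genes.

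Cd5, the inhibitory receptor shared by T cells and B-1a cells, followed a different order. It had 6.47, 5.33 and 5.58 CPM in KO_sg1 and 1.11, 1.32 and 0.952 CPM in KO_sg4. KD libraries had 6.06, 5.96 and 4.12 CPM, against 1.2, 1.14 and 1.29 CPM in WT. KO_sg1 and KD overlapped with each other, as did KO_sg4 and WT, and KO_sg1 and KD lay above KO_sg4 and WT. Cd5 rose by 2.26 ± 0.18 on the log2 scale in KO_sg1, which is 4.78-fold (edgeR adjusted p = 2.25e-07), and by 2.15 ± 0.18 in KD (6.88e-08). In KO_sg4 it was at -0.12 ± 0.22 and did not pass the test (0.72). The mean of both guides, 1.07 ± 0.18 (0.000247), therefore describes KO_sg1 and not KO_sg4.

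Lck, the proximal kinase of the T-cell receptor, had 86.0, 83.2 and 84.0 CPM in KO_sg1 and 42.7, 46.9 and 49.4 CPM in KO_sg4. KD libraries had 9.08, 8.45 and 8.83 CPM, against 18.8, 17.5 and 17.8 CPM in WT. The 4 groups did not overlap, and Lck was higher than in WT in both KO lines and lower in KD. Lck rose by 2.23 ± 0.06 on the log2 scale in KO_sg1, which is 4.68-fold (edgeR adjusted p = 4.26e-12), and by 1.36 ± 0.06 in KO_sg4, which is 2.57-fold (5.12e-10). In KD it fell by 1.03 ± 0.07 (7.08e-09). KO and KD differed directly by 2.83 ± 0.06 (5.42e-14), and the opposite directions held under all 20 alternatives, with 1.32 to 2.27 in either KO line and -1.09 to -0.81 in KD.

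Mouse Lck is known to be transcribed from a distal promoter, used in mature T cells, and a proximal promoter, used in thymocytes. The deposited gene-level counts do not separate them. Both are shown as RefSeq places the starts in GRCm38.p6, since Lck is the most abundant of the 10 genes in the KO lines. Each line gives the 250 bases before the start, 5′ to 3′ on the strand of the gene, in lower case, with matches to 5 motifs in capitals, on either strand: AGGAAG (ETS), TGTGGT (RUNX), TGGGAA (Ikaros), CTTTGA (TCF/LEF) and CAGGTG (an E-box). No match overlaps another in these windows.
Lck upstream (distal) start, chr4:129573642-129573891, minus strand: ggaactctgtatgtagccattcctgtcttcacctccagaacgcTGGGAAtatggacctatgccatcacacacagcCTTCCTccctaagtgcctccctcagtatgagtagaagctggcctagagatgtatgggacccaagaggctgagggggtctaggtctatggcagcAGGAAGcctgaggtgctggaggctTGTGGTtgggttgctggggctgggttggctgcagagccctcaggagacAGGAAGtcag
Lck downstream (proximal) start, chr4:129558373-129558622, minus strand: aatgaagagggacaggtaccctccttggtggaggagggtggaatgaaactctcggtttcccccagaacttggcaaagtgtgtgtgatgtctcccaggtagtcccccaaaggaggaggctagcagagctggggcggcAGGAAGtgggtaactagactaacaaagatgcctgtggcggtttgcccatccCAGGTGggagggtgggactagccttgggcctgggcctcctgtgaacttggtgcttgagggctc
The distal window holds 3 ETS, 1 RUNX and 1 Ikaros match, and the proximal window holds 1 ETS and 1 E-box match. Over all 32851 RefSeq windows of that length, 29.5% hold the ETS letters, 14% the RUNX letters, 21.6% the Ikaros letters, 13.8% the TCF/LEF letters and 17.2% the E-box letters. A match describes the letters only, and no binding was measured in these libraries.

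Zap70, the kinase that LCK activates, had 7.88, 7.69 and 8.42 CPM in KO_sg1 and 2.57, 4.35 and 3.06 CPM in KO_sg4. KD libraries had 3.12, 3.66 and 3.55 CPM, against 4.94, 5.29 and 4.07 CPM in WT. KO_sg1 lay above all other libraries, and KO_sg4 overlapped with both KD and WT. Zap70 rose in KO_sg1 by 0.74 ± 0.16 on the log2 scale (edgeR adjusted p = 0.00187). In KO_sg4 it was called lower (-0.55 ± 0.17, adjusted p = 0.0174), but that call was lost under 5 of 20 alternatives (0.000766 to 0.0774), without WT replicate 1 or 2, without KO_sg4 replicate 1 or 3, and with only KO_sg4 and WT in the fit. The KD call (-0.48 ± 0.16, 0.0167) was lost under 3 of 20 (0.00285 to 0.135): without WT replicate 2, without KD replicate 1, and with library totals in place of TMM factors (-0.26, 0.135). The mean of both guides was 0.09 ± 0.14 (0.632).

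Lat, the membrane scaffold phosphorylated by ZAP70, had 4.53, 4.45 and 4.85 CPM in KO_sg1 and 1.61, 2.05 and 2.35 CPM in KO_sg4. KD libraries were the highest, at 6.62, 7.92 and 6.96 CPM, against 1.85, 2.24 and 2.70 CPM in WT. As for Cd5, KO_sg1 and KD stood above WT and KO_sg4 overlapped with it, although for Lat KD lay above KO_sg1 without overlap. Lat rose by 1.03 ± 0.16 on the log2 scale in KO_sg1 (edgeR adjusted p = 0.000167) and by 1.66 ± 0.15 in KD (1.78e-07), and was at -0.18 ± 0.17 in KO_sg4 (0.456). Its mean over both guides, 0.42 ± 0.15 (0.0318), lost its call when WT replicate 1, WT replicate 2, replicate 3 of KO_sg1 or replicate 3 of KO_sg4 was left out, with adjusted p from 0.00712 to 0.175 over the alternatives.

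Because Cd5 and Lat were higher in the same groups, their upstream bases are given in the same form.
Cd5, chr19:10738975-10739224, minus strand: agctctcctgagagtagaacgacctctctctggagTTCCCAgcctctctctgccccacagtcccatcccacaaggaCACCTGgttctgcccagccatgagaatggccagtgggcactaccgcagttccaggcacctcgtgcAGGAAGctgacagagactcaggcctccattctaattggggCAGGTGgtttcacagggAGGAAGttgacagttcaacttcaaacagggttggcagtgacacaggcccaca
Lat, chr7:126369569-126369818, minus strand: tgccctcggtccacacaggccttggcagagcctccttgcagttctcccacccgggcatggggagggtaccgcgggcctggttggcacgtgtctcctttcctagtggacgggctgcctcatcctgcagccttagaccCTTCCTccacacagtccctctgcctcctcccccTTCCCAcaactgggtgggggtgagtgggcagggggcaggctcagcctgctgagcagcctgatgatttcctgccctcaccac
The Cd5 window holds 2 ETS, 2 E-box and 1 Ikaros match, and the Lat window holds 1 ETS and 1 Ikaros match.

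Grap2, the adaptor that joins LAT to SLP-76, rose most in KO. It had 15.3, 14.7 and 12.7 CPM in KO_sg1 and 21.8, 15.5 and 19.2 CPM in KO_sg4. KD libraries had 1.15, 1.47 and 1.33 CPM, against 0.240, 0.368 and 0.430 CPM in WT. WT was lowest, KD lay between WT and KO, and the libraries of KO_sg1 and KO_sg4 did not overlap. Grap2 rose by 5.36 ± 0.20 on the log2 scale in KO_sg1 (41.1-fold, edgeR adjusted p = 8.23e-11), by 5.77 ± 0.20 in KO_sg4 (54.4-fold, 2.31e-11) and by 1.92 ± 0.27 in KD (3.79-fold, 1.66e-05). Among the 12335 genes tested it ranked number 7 from the top by fold change in KO_sg1, number 4 in KO_sg4 and number 291 in KD. The WT level rests on 28.7 estimated counts over the 3 libraries. As for Cd28, the estimated counts of Grap2 were fractional, here in every library. Transcripts of other genes overlap Grap2 on the same strand in the GENCODE annotation of GRCm38, and their share in its counts was not tested.
Grap2, the 250 bases before the start, chr15:80623233-80623482, plus strand: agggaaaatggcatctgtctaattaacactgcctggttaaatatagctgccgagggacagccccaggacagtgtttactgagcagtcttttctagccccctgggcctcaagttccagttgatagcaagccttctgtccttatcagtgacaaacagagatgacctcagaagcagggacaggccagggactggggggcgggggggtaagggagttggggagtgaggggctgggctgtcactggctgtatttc
None of the 5 motifs is in this window, which says only that these letters are absent from it.

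**Figure D2:**
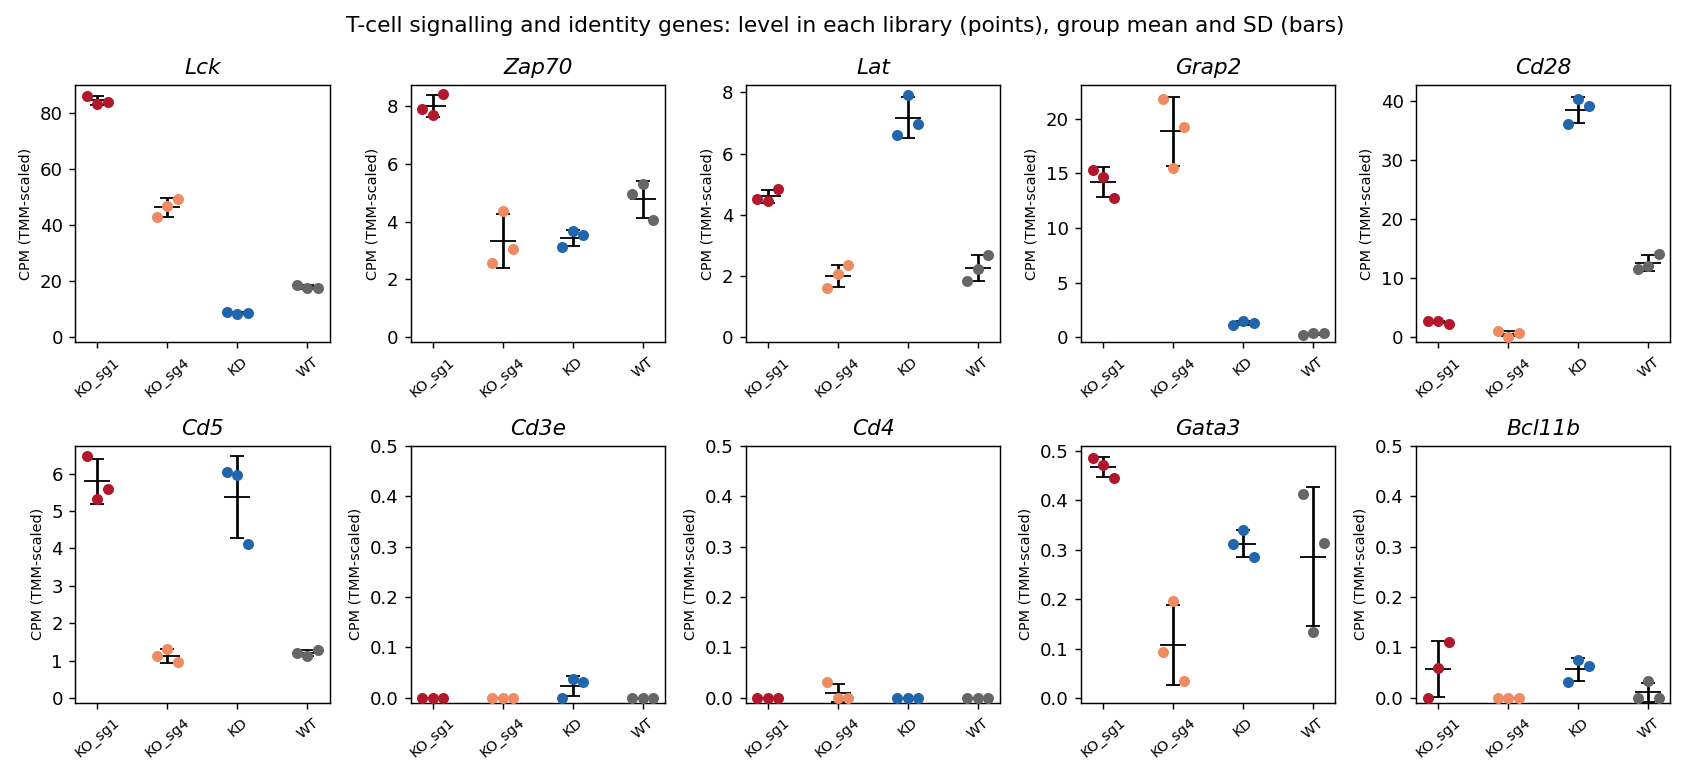
Level of each of the 10 genes in every library, in TMM-scaled CPM on linear axes; points are libraries, bars the group mean and SD (n = 3), and the panels of Cd3e, Cd4 and Bcl11b share an axis up to 0.5 CPM. Lck and Grap2 are higher in both KO lines than in WT, Cd28 is lower, and Cd5 and Lat are high in KO_sg1 and KD.

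**Figure D3:**
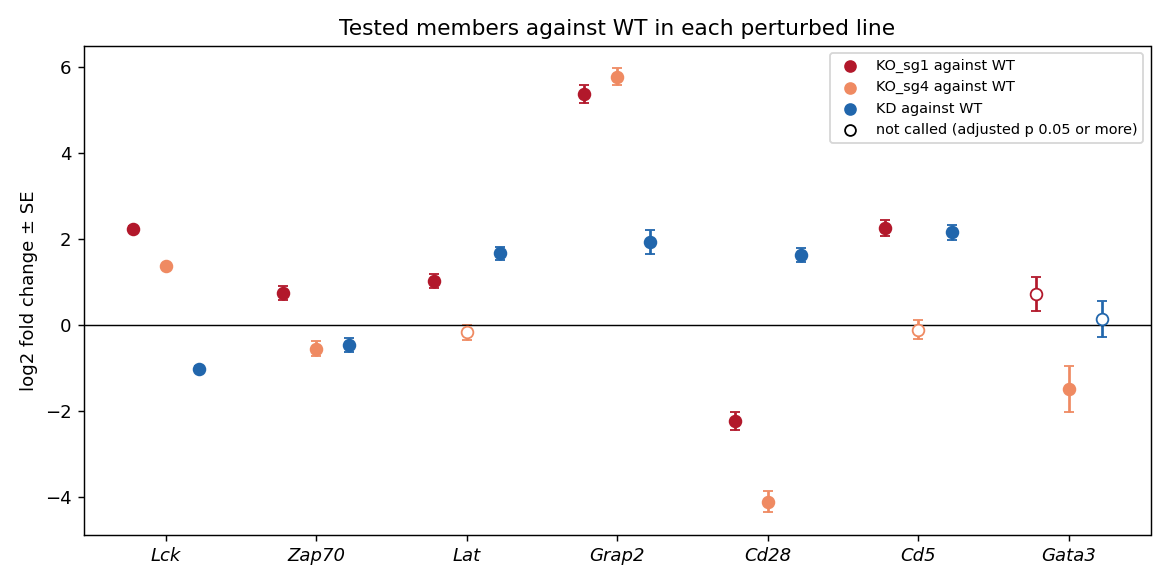
Log2 fold change against WT of the 7 tested genes in KO_sg1, KO_sg4 and KD, from left to right within each gene, with the standard error of the fit; open points did not pass the test. Lck and Cd28 lie on opposite sides of 0 in KO and KD, and Cd5 and Lat are near 0 in KO_sg4.

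The guide lines were also set against each other. All 7 tested members differed between KO_sg4 and KO_sg1, 1 higher and 6 lower, where 27.2% of all genes were called (13.8% higher and 13.4% lower). None of the 7 had overlapping libraries, beside 33.1% of all genes without overlap. Cd5 was lower in KO_sg4, at -2.37 ± 0.19 on the log2 scale (edgeR adjusted p = 3.13e-07), as were Gata3 at -2.21 ± 0.50 (0.00478) and Cd28 at -1.87 ± 0.30 (0.000377). Zap70 was at -1.29 ± 0.16 (4.3e-05), Lat at -1.20 ± 0.16 (8.32e-05) and Lck at -0.87 ± 0.06 (8.25e-08). Grap2 was the exception in direction, higher in KO_sg4 by 0.41 ± 0.13 (0.0296). The Grap2 call was lost under 5 of 20 alternatives (0.002 to 0.116): without KO_sg1 replicate 3, without KO_sg4 replicate 1 or 3, with only these groups in the fit, and with the replicate number as a block.

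KO and KD were compared directly as well, with the mean of both guides on top. Of the 7 tested members 3 were higher and 3 lower in KO than in KD, where 83.3% of genes were called (40.4% higher and 42.9% lower). Libraries did not overlap for 4 members, beside 71.7% of all genes. Grap2 was higher by 3.64 ± 0.15 on the log2 scale (edgeR adjusted p = 2.19e-11) and Zap70 by 0.57 ± 0.15 (0.00231). Lat was lower at -1.24 ± 0.12 (3.24e-07) and Cd5 at -1.08 ± 0.14 (5.6e-06), and Gata3 did not pass (-0.52 ± 0.39, 0.228). The KO and KD comparisons with WT share the WT libraries, and the comparisons of KO with WT and KD share the KO libraries, so their values are given side by side only.

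Levels of different genes were compared after division by the length of the longest GENCODE transcript, as CPM per kilobase. In KO_sg1 the order was Lck (38.6), Lat (3.73), Zap70 (3.56), Grap2 (2.59), Cd5 (1.94), Cd28 (0.603) and Gata3 (0.146). In KO_sg4 it was Lck (21.2), Grap2 (3.43), Lat (1.62), Zap70 (1.48), Cd5 (0.378), Cd28 (0.152) and Gata3 (0.0333). KD had Cd28 first (8.86), then Lat (5.81), Lck (4.02), Cd5 (1.80), Zap70 (1.53), Grap2 (0.241) and Gata3 (0.0970). In WT Lck led (8.24), followed by Cd28 (2.90), Zap70 (2.12), Lat (1.84), Cd5 (0.405), Gata3 (0.0890) and Grap2 (0.0632). By this measure Grap2 was the lowest of these 7 in WT and second only to Lck in KO_sg4. Its place below Gata3 in WT depends on the division by length. In CPM Gata3 was the lower there, at 0.286 ± 0.141 against 0.346 ± 0.0968 for Grap2 (SD, n = 3). Their WT libraries overlapped, on 24.2 and 28.7 estimated counts.

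The genes most like each member over the 12 libraries, by Pearson r of log2 (CPM + 0.5) among 9020 other genes with at least 5 CPM in a group, were as follows. Lck was most like Hs3st2 (0.99), Tmem90a (0.99) and Grb7 (0.99), and Grap2 most like Scn4b (0.99), Megf10 (0.98) and Rltpr (0.97). For Cd28 they were Clic4, Pim1 and Irs1 (all 0.99). For Cd5 they included Cd72 (0.96), a surface receptor of B cells, and Emid1 (0.95). For Lat they were Cmtm7 (0.98), Srgn (0.98) and Trp53i13 (0.97), and for Zap70 Plekho1 (0.97), Zfp296 (0.97) and Cstb (0.96). These values are set mainly by the 4 group means, which the libraries share, and are descriptions only.

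The wider T-cell receptor list of 16 complex, coreceptor and costimulation genes was mostly low, and 10 were tested. In the KO mean 1 rose (Cd5), 4 fell and 5 did not pass, with a median log2 fold change of -0.35 against -0.01 over all tested genes. Set to a floor of 3 counts over the KO libraries, Thy1 stayed the lowest of the list, so that median could not change. In the KO mean 50% of the list was called, where 41.5% of all genes were called. By guide, KO_sg1 had 2 higher and 5 lower (70%, where 38.8% of all genes were called). KO_sg4 had 0 higher and 4 lower (40%, where 40% of all genes were). Besides Thy1, the largest were Cd28 and Tigit, an inhibitory receptor (-1.14 ± 0.28, edgeR adjusted p = 0.00499). In KD 5 rose and none fell, with 5 not passing, so that 50% were called, where 77.6% of all genes were. The median was 1.17 against -0.01, and Cd5 and Pdcd1, which encodes PD-1 (2.10 ± 0.33, 4.21e-05), were highest. Cd3d and Cd8a did not pass in either KO line or in KD against WT. Cd247, the zeta chain, was called lower in KO_sg1 (-0.99 ± 0.37, adjusted p = 0.0495), at the threshold, and differed between the guides (1.2 ± 0.37 in KO_sg4 against KO_sg1, adjusted p = 0.0269). Replicates disagreed, with 7.93, 40.69 and 11.23 estimated counts in KO_sg1 and 80.33, 27.05 and 39.58 in KO_sg4. WT had 41.03, 45.87 and 40.98. Neither call was recomputed under the alternatives.

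Of 35 genes of proximal T-cell receptor signalling, 25 were tested. In the KO mean 6 rose, 12 fell and 7 did not pass (median -0.22), and in KD 8 rose, 12 fell and 5 did not pass (median -0.27). The shares called were 72% in the KO mean and 80% in KD, where 41.5% and 77.6% of all genes were called, so the KD count is near the background. By guide, KO_sg1 had 9 higher and 11 lower, while KO_sg4 had 5 higher and 14 lower. The shares were 80% and 76%, where 38.8% and 40% of all genes were called. Sla2, an adaptor that dampens antigen receptor signals, fell in the KO mean. It was at 1.12 ± 0.253 CPM in KO_sg1, 0.769 ± 0.0224 CPM in KO_sg4, 8.67 CPM in KD and 12.7 ± 0.945 CPM in WT (SD, n = 3 each; log2 fold change -3.79 ± 0.11, edgeR adjusted p = 2.93e-12). Sh2d2a, an adaptor that binds LCK, had the largest fall in KD (-1.85 ± 0.12, 3.35e-09), and stood at 22.8 CPM in KO_sg1, 7.91 CPM in KO_sg4, 1.60 CPM in KD and 5.80 CPM in WT. The T-cell genes Themis, Sh2d1a and Trat1 had 0 counts in every library. These 3, and Cd3d, Cd8a, Cd247, Ptcra, Cd3g, Rag1, Rag2, Hes1, Tcf7 and Lyn in the other lists, were named after their values were seen.

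Among 19 T-lineage transcription factors 14 were tested, and in the KO mean 3 rose, 7 fell and 4 did not pass (median -0.21). Zbtb7b, the factor of helper T-cell fate, fell (-1.75 ± 0.06, edgeR adjusted p = 2.03e-11), as did Runx3, of cytotoxic fate (-1.21 ± 0.06, 8.02e-10), and Lef1, which acts in both B and T precursors, rose (1.24 ± 0.11, 3.12e-07). In KD 2 rose, 7 fell and 5 did not pass (median -0.19). The shares called were 71.4% in the KO mean and 64.3% in KD, where 41.5% and 77.6% of all genes were called. By guide, KO_sg1 had 2 higher and 7 lower, while KO_sg4 had 4 higher and 6 lower. Those shares were 64.3% and 71.4%, where 38.8% and 40% of all genes were called. Notch1, the receptor that drives T-cell fate, rose in KD (1.51 ± 0.05, 1.92e-11). In the same list Hes1 did not pass in KD (0.01 ± 0.05, 0.798) and Tcf7 fell there (-0.45 ± 0.14, 0.00753). Tox had 2 counts in KD and 17 in WT, a 9.06-fold lower count in KD with a 95% counting interval of 2.15 to 80.8, and its edgeR call (0.0116) was lost without WT replicate 2 (0.114, range over the alternatives 0.00659 to 0.114).

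Of 13 early thymocyte genes 9 were tested. The list is not exclusive to thymocytes. In the WT pre-B cells Cd44 was at 43.7 CPM, Il7r at 30.1 CPM, Rag1 at 27.2 CPM and Rag2 at 9.96 CPM. Il2ra was at 3.09 CPM, Ptcra at 1.21 CPM, Dtx1 at 1.16 CPM, Ccr9 at 0.466 CPM and Dntt at 0.310 CPM. A count over the list is therefore not a count of T-cell genes alone. Ptcra, the pre-T-cell receptor alpha chain, did not pass in either KO line or in KD against WT. In the KO mean 4 rose, 3 fell and 2 did not pass, and in KD 7 rose, none fell and 2 did not pass. The share called was 77.8% in both, where 41.5% of all genes were called in the KO mean and 77.6% in KD (37.2% higher and 40.4% lower). By guide, KO_sg1 had 2 higher and 4 lower, while KO_sg4 had 4 higher and 3 lower. Rag1 and Rag2, the recombinase genes, fell in KO_sg1 (-0.86 ± 0.13 and -0.50 ± 0.13; adjusted p = 0.00017 and 0.00697) and rose in KO_sg4 (1.65 ± 0.12 and 1.46 ± 0.12; 9.64e-08 and 1.91e-07), so their KO mean describes neither line. Dntt, terminal transferase, rose in the KO mean (2.17 ± 0.27, edgeR adjusted p = 1.37e-05), and the adhesion receptor gene Cd44 (-1.5 ± 0.08, 1.12e-09) and Il2ra, the interleukin 2 receptor alpha chain (-1.15 ± 0.13, 7.83e-06), fell. Il7r, the interleukin 7 receptor (1.98 ± 0.08, 6.76e-11), and the homing receptor gene Ccr9 (1.31 ± 0.38, 0.00606) were the most raised in KD.

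**Figure D4:**
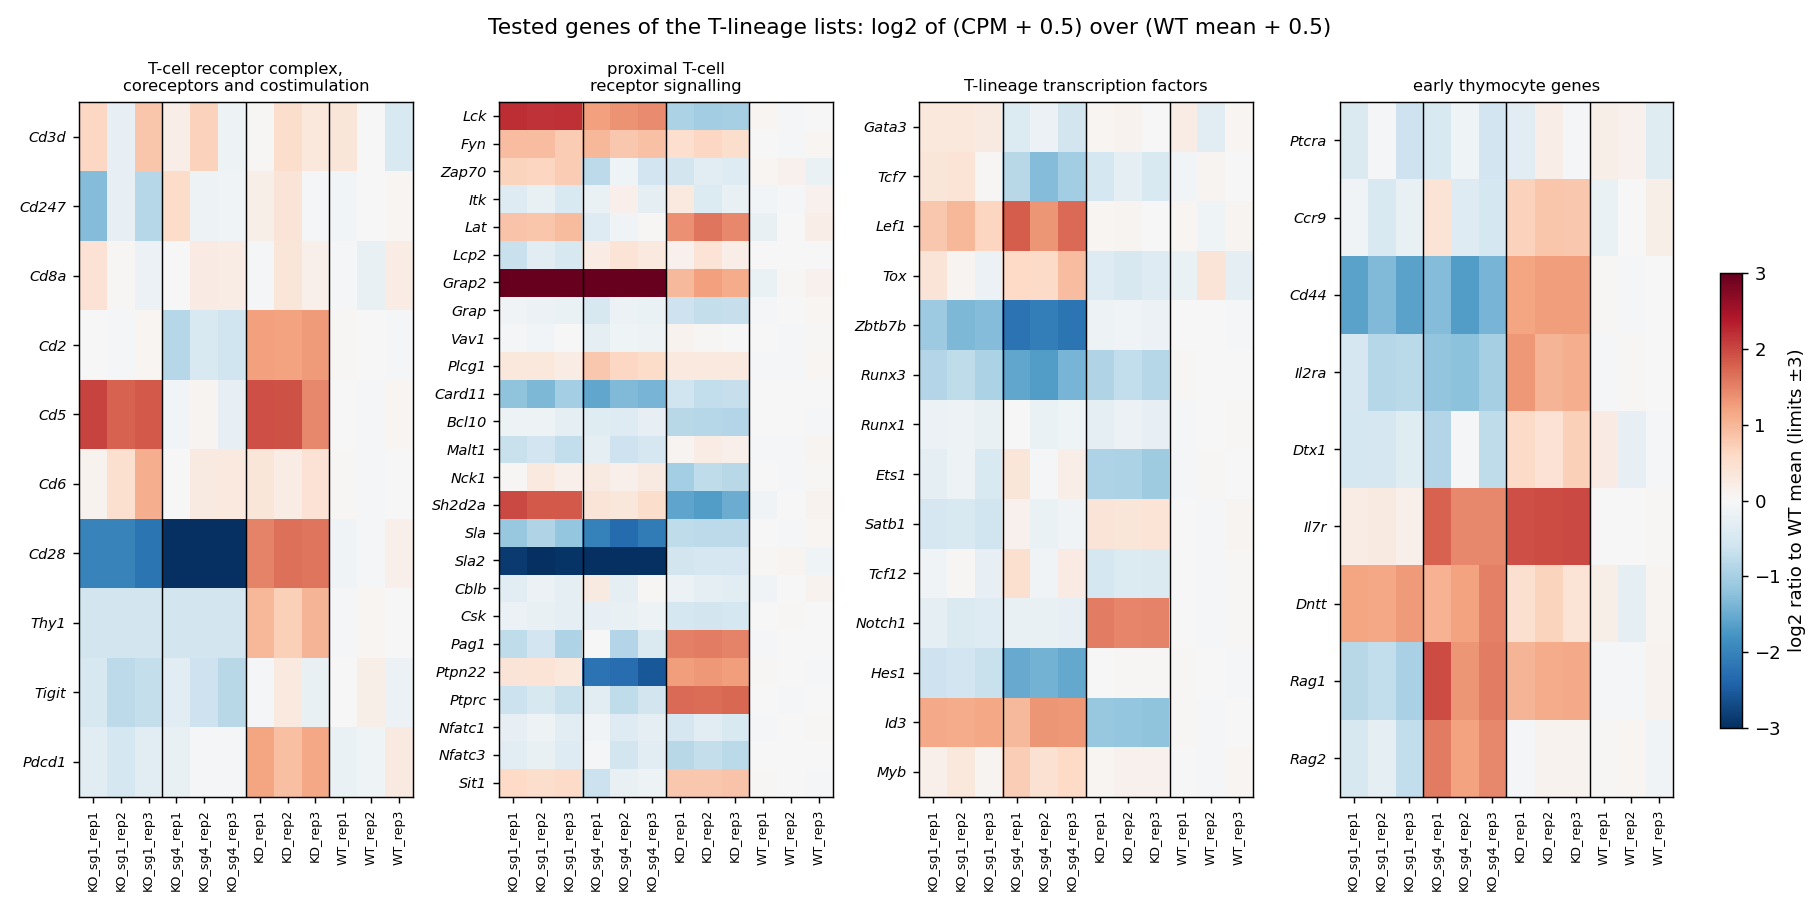
Tested genes of the 4 T-lineage lists in every library, as log2 of (CPM + 0.5) over (WT mean + 0.5), red for higher and blue for lower with colours limited at 3 either way; columns run from KO_sg1 through KO_sg4 and KD to WT. Lck and Grap2 stand out as higher in both KO lines, and Cd28 and Sla2 as lower.

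Genes that serve the same step in B cells were set beside the T-cell genes, in 6 pairs drawn up after the values were seen. Blk, the Src-family member typical of B cells, was lower in both KO lines: -5.57 ± 0.16 in KO_sg1 (edgeR adjusted p = 4.66e-12) and -3.49 ± 0.13 in KO_sg4 (4.57e-11), and it was lower in KD too (-2.37 ± 0.12, 3.52e-10). Lyn, another Src-family member that is outside the 6 pairs, fell in KO_sg1 and KO_sg4 (-0.53 and -0.60) but rose in KD (0.86). Lat2, the scaffold NTAL of B and myeloid cells, was at -1.28 ± 0.07 in KO_sg1 (6.63e-09), -3.37 ± 0.08 in KO_sg4 (8.21e-13) and 0.56 ± 0.07 in KD (4.67e-06). Syk and Grb2 did not pass in KO_sg1 or KO_sg4, at -0.10 and -0.01 for Syk and -0.13 and -0.13 for Grb2, and fell in KD (-0.45 and -0.83). Plcg1, the phospholipase used in T cells, rose in KO_sg1, KO_sg4 and KD (0.29, 0.67 and 0.30), and Plcg2, used in B cells, fell in all of these (-0.12, -0.46 and -0.41). Lcp2, encoding SLP-76, the partner of GRAP2, was low, at 0.110 CPM in KO_sg1, 0.558 CPM in KO_sg4, 0.518 CPM in KD and 0.355 CPM in WT, and was called only in KO_sg1 (-1.57 ± 0.43, 0.0104; between the guides 2.19, adjusted p = 0.000945). Its B-cell relative Blnk rose in KO_sg1 and KO_sg4 (0.19 and 0.34) and fell in KD (-0.77).

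**Figure D5:**
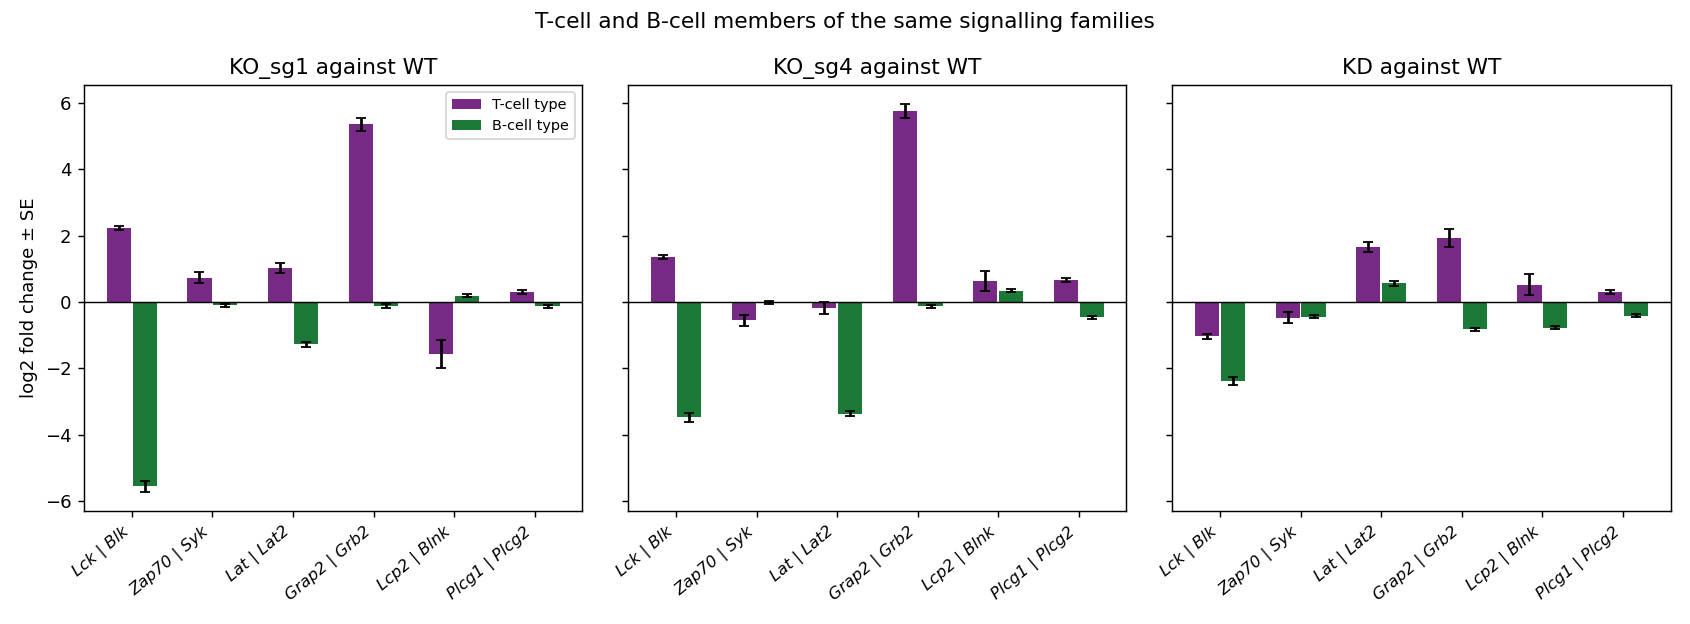
Log2 fold change against WT with standard error for 6 pairs of related signalling genes, the T-cell type in purple and the B-cell type in green, in KO_sg1, KO_sg4 and KD. The types name the pairing and not exclusive use, since Plcg1 was at 59.7 CPM in WT. Lck and Blk lie on opposite sides of 0 in both KO lines, as do Plcg1 and Plcg2, and Grap2 and Grb2, although Grb2 did not pass the test there. The other pairs do not keep that pattern. Lcp2 is lower and Blnk higher in KO_sg1 (-1.57 and 0.19). In KO_sg4 Lat and Lat2 are both below 0 (-0.18 and -3.37), as are Zap70 and Syk (-0.55 and -0.01).

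The list of 13 B-cell receptor counterparts had 3 higher and 6 lower in the KO mean and 5 higher and 6 lower in KD. The shares called in the KO mean were 69.2% of these, 80% of the B-lineage identity genes, 85.7% of the tested myeloid genes and 83.3% of the tested B-1 genes, where 41.5% of all genes were called. In KD they were 84.6%, 86.7%, 85.7% and 83.3%, where 77.6% of all genes were called. Besides Blk and Lat2, Prkcb, a protein kinase C of B cells, was the largest in KO (0.63 ± 0.07, edgeR adjusted p = 8.05e-06), and Cd79a, a signalling chain of the B-cell receptor, rose in KD (1.41 ± 0.10, 1.06e-08). Of 15 B-lineage identity genes 5 rose and 7 fell in the KO mean, with Bank1, Cd22 and Cd72 the largest (-1.62 ± 0.08, -0.72 ± 0.06 and 0.68 ± 0.09; adjusted p = 8.46e-10, 1.89e-07 and 2.12e-05), and 7 rose and 6 fell in KD, with Cd72 highest (1.69 ± 0.10, 1.48e-09). The KO mean of Cd72 came from KO_sg1 (1.34 ± 0.10, 8.44e-08), since in KO_sg4 it was at 0.02 ± 0.10 (0.88). Of 11 NK and innate lymphoid genes only Klrb1c and Klrd1 were tested, and both rose in the KO mean (4.10 ± 0.35 and 1.19 ± 0.14; adjusted p = 3.37e-07 and 8.03e-06) and in KD (2.5 ± 0.45 and 2.99 ± 0.14; 0.000149 and 1.89e-10). Klrd1 did not pass in KO_sg1 (0.24 ± 0.17, 0.272) and rose in KO_sg4 (2.13 ± 0.14, 2.77e-08). Klrb1c rose in both lines, by 3.06 ± 0.42 in KO_sg1 (5.7e-05) and 5.14 ± 0.34 in KO_sg4 (2.39e-08). It was higher in KO_sg4 than in KO_sg1 by 2.08 ± 0.24 (1.66e-05). The WT level of Klrb1c rests on 9 estimated counts over the 3 libraries, so the size of its changes against WT is uncertain. Of 12 myeloid genes 7 were tested, and 6 fell in the KO mean, with Fcgr1 at -6.75 ± 0.13, Csf1r at -5.14 ± 0.42 and Tyrobp at -3.54 ± 0.24 (3.18e-14, 2.07e-07 and 2.34e-08), while 6 rose in KD, led by Fcer1g (2.94 ± 0.13, 1.75e-10) and Csf1r (2.67 ± 0.22, 5.06e-08). Of 8 genes of B-1 and mature B cells, listed because they share CD5 with T cells, 6 were tested: 3 rose and 2 fell in the KO mean, with Cd36 at -0.56 ± 0.08 and Plscr1 at 0.54 ± 0.06 (3.3e-05 and 5.85e-06) after Cd5, and 3 rose and 2 fell in KD, with Spn, the CD43 gene, at 1.56 ± 0.07 (1.2e-10).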

How the data were processed

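The authors deposited RSEM estimated counts for 23224 genes in 12 libraries; per the submitters' processing notes these came from RSEM 1.2.12 and Bowtie 1.0.1 on mm9 (gene annotation and strand setting: not given in the sources used here). Because RSEM divides reads that match several genes, values of genes with close relatives or overlaps are uncertain. Groups and replicate numbers came from the sample titles.

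Counts were rounded to whole numbers, filtered with filterByExpr by group (minimum count 10), scaled with TMM factors (0.88 to 1.14) and fitted with the quasi-likelihood test of edgeR 4.0.16 over all libraries and 4 groups (R 4.3.3; common biological coefficient of variation 0.0768). Contrasts, 6 in all, were two-sided, adjusted by Benjamini-Hochberg over 12335 genes and called below 0.05. The script was tested on simulated data. The standard error is the log2 fold change over the square root of its F statistic. CPM is scaled to the counts of tested genes. Replicate libraries differed beyond sampling noise (chi-square per degree of freedom 3.24 to 60.8 over 12 pairs). The model had no replicate block.

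The members and lists were chosen with earlier results of these data known. Named were the members and, per list, up to 3 called genes by largest change in KO and 2 in KD. Alternatives were DESeq2 1.42.0 size factors or its test, library totals, limma 3.58.1 voom, other filters, fewer groups, a replicate block and leaving out each library. Upstream sequences are from RefSeq's GRCm38.p6 table, where 8 of 10 members matched, and Cd28 and Cd4 did not; transcript lengths are from GENCODE annotation of GRCm38. Some genes of the lists and of the most alike genes are not reported here, and sums and counts were made without them.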

Additional observations from a re-analysis of the deposited data

Results flagged for a closer look

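The effect of the knockout label differed between the guide lines for all 7 tested genes, by the direct edgeR contrast of KO_sg4 with KO_sg1: log2 differences were -0.87 for Lck, -1.87 for Cd28, -2.37 for Cd5, 0.41 for Grap2, -1.20 for Lat, -1.29 for Zap70 and -2.21 for Gata3. Adjusted p ran from 8.25e-08 for Lck to 0.0296 for Grap2. The 3 libraries of a line lay wholly above or wholly below those of the other line for each of these genes. Between the guides 27.2% of all tested genes were called and 33.1% had no overlap. The guide and the line that carries it cannot be told apart.

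The effect also differed between knockout and knockdown for 6 of the 7, by the direct contrast of the KO mean with KD: 2.83 for Lck, -4.80 for Cd28, -1.08 for Cd5, 3.64 for Grap2, -1.24 for Lat and 0.57 for Zap70. Adjusted p ran from 5.42e-14 for Lck to 0.00231 for Zap70. Of all tested genes 83.3% were called in this contrast, so a count of 6 of the 7 is near the background. The KO libraries were near 0 for Y-linked transcripts, unlike KD and WT, and this cannot be told apart from the Phf6 label.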

How the results depend on the processing

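Each value of a tested member was recomputed under up to 20 alternatives, as was the KO mean or KD value of each other gene named by the rule. For the 7 members, 799 of 832 values kept their direction and their side of the threshold, 30 lost the call and 3 changed sign. The sign changes were all in values that had not passed the test: Zap70 in the KO mean against WT without KO_sg4 replicate 2 (-0.0133 to 0.177 over the libraries left out), Cd5 in KO_sg4 against WT without KO_sg4 replicate 3 (-0.219 to 0.0026) and Gata3 in KD against WT without WT replicate 2 (-0.241 to 0.495). For the other named genes 714 of 715 held. With just the compared groups in the fit, KO_sg4 against WT had 3 members called, not 5, and 3743 genes, not 4929. Between the guides 1595 genes were called in place of 3359. Genes called against WT were 5731 in place of 4784 in KO_sg1 and 10317 in place of 9566 in KD. The cause of these shifts was not tested. Leaving out 1 library gave 3 to 5 members and 3993 to 5485 genes called in KO_sg4 against WT. Between the guides it gave 2279 to 5329 genes called, the highest without KO_sg4 replicate 2, and the cause was not tested. Library totals moved the median log2 fold change of all genes from -0.01 to 0.21 in KD against WT, from 0.01 to 0.13 between the guides and from -0.05 to -0.29 in KO against KD, and the share of calls that were higher from 47.9% to 59.7%, from 50.6% to 72.9% and from 48.5% to 37.3%; in KO_sg1 against WT that share was 30.0% in place of 43.5%. With the replicate number as a replicate block, 5 members were called against WT in the KO mean, 6 in KO_sg1, 4 in KO_sg4 and 6 in KD. Between the guides 6 were called, and 6 in the KO mean against KD. Genes called were, in the same order, 4642, 4264, 4423, 9345, 2730 and 10108. Gata3 in KO_sg4 (edgeR adjusted p = 0.064) and Grap2 between the guides (0.0533) lost their calls. Deviations of same-numbered libraries correlated at -0.45 to 0.151, and 1 of the 12 libraries correlated best with its own number. Depth limits Gata3, Cd3e, Cd4 and Bcl11b, Grap2 and Klrb1c in WT, and Fcgr1, Csf1r and Tyrobp in KO.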
